A study of Mus musculus with 8 samples.

Results

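The genes of hepatic de novo lipogenesis were examined as a set of 10: the transcription factor genes *Srebf1* and *Mlxipl*, the enzyme genes *Acly*, *Acaca*, *Acacb*, *Fasn*, *Scd1* and *Me1*, and the lipogenic genes *Thrsp* and *Pnpla3*. They were picked by symbol as the established core of the pathway, and all 10 were found among the 24940 genes of the count table. All 10 were also among the 12340 genes that had enough counts to be tested. Liver mRNA of 8 male C57BL/6 mice was sequenced, 4 of each genotype. The FxrKO mice were homozygous for floxed *Bcl6* without Cre and for loss of *Fxr* (*Nr1h4*) in the whole body. The Bcl6LKOFxrKO mice carried the same alleles and Alb-Cre, which deletes floxed *Bcl6* where the albumin promoter is active, in hepatocytes. Both genotypes therefore lack FXR, the bile acid receptor, and differ in hepatocyte BCL6, a transcriptional repressor. The carrying of Cre and the loss of *Bcl6* cannot be told apart, since no mice with Alb-Cre and without floxed *Bcl6* were used here, and livers of Bcl6 fl/fl and Bcl6LKO mice with intact *Fxr* were not analysed here. The labels give no age. As its general conditions the study names free feeding or a fast of 4 hours, and which of them applied to these 8 mice is not given in the sources used here. The livers are numbered 1 to 4 within each genotype, a number that names a liver and pairs none. The comparison asks which lipogenic transcripts differ when hepatocyte *Bcl6* is deleted in mice that already lack *Fxr*.

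De novo lipogenesis turns surplus carbohydrate into fatty acids. Citrate leaves the mitochondria and is cleaved to acetyl-CoA by ATP citrate lyase, acetyl-CoA is carboxylated to malonyl-CoA by the acetyl-CoA carboxylases, and fatty acid synthase joins these units to palmitate with NADPH that malic enzyme and the pentose phosphate pathway supply. Stearoyl-CoA desaturase then makes the monounsaturated fatty acids that triglycerides and cholesterol esters are built from. Feeding turns the genes on through SREBP-1c, which responds to insulin and to oxysterols, and through ChREBP, which responds to sugar metabolites, and in liver the pathway is known for its rise with carbohydrate feeding and its part in fatty liver.

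The livers gave between 7586241 and 11839503 counts each. *Bcl6* was at 56.3, 65.2, 21.2 and 55.6 CPM (library-size-scaled counts, with TMM factors) in the FxrKO livers and at 11.9, 4.61, 5.55 and 7.72 CPM in the Bcl6LKOFxrKO livers, so the targeted gene was lower in every liver that carried Cre (log2 fold change -2.72, adjusted p = 0.00123, edgeR). *Nr1h4* was still counted in both genotypes, at 60.0 ± 2.46 and 43.5 ± 3.69 CPM (SD, n = 4), lower in every Bcl6LKOFxrKO liver than in any FxrKO liver (log2 fold change -0.46, adjusted p = 0.00497, edgeR), and no liver with intact *Fxr* was analysed here. All 10 hepatocyte markers examined passed the filter on low counts, 1 of them (*Alb*) higher and 3 (*Ttr*, *Fah* and *Apob*) lower in Bcl6LKOFxrKO livers, and *Alb* alone took 4.04% to 5.16% of the counts of FxrKO livers and 11.9% to 13.2% of those of Bcl6LKOFxrKO livers. Many markers of other cells were higher in the Bcl6LKOFxrKO livers: 9 of 12 stellate cell and fibroblast markers, 5 of 12 macrophage markers, 2 of 6 tested cholangiocyte markers and 3 of 10 endothelial markers were called higher, and the others did not pass the test. Of the latter, *Cd163* (log2 fold change -0.98) and *Timd4* (-0.32) of the macrophage list and *Sox9* (-0.81) of the cholangiocyte list were among those with a negative value. Those with the smallest adjusted p were *Dcn* (log2 fold change 1.05), *Pdgfrb* (1.06) and *Colec11* (0.99) of the stellate and fibroblast list, *Trem2* (2.85), *Lyz2* (0.81) and *Spp1* (1.0) of the macrophage list, *Spp1* again and *Krt19* (1.28) of the cholangiocyte list, and *Vwf* (1.6), *Stab2* (0.63) and *Eng* (0.45) of the endothelial list. The summed stellate and fibroblast markers ranged from 267 to 365 CPM in FxrKO and from 544 to 659 CPM in Bcl6LKOFxrKO livers, the summed macrophage markers from 344 to 466 and from 514 to 709 CPM, the cholangiocyte markers from 59.3 to 86.6 and from 92.4 to 157 CPM, and the endothelial markers from 230 to 304 and from 326 to 419 CPM. T cell markers summed to 2.37 to 3.22 and 5.74 to 9.44 CPM, with 1 of 10 (*Lck*, higher) tested. Their part in the results was not tested. Adipocyte markers were read as well, since fat tissue expresses the same enzymes, and 3 of 10 were tested. *Cfd* was lower, at 1.98, 7.0, 12.6 and 1.51 CPM in FxrKO livers and 0.101, 0.121, 0.292 and 0 CPM in Bcl6LKOFxrKO livers (log2 fold change -5.35, edgeR adjusted p = 0.00438). *Scd1* was at 6082, 6299, 10413 and 7917 CPM in the FxrKO livers, so FxrKO liver 3 was the highest in both genes. FxrKO liver 4 was the lowest in *Cfd* and next to the highest in *Scd1*, and a link between them was not tested. *Adipoq* had at most 1 count in any liver, *Lep* and *Plin1* had 0 counts in all 8 livers, which allows up to 3 counts in each, and the summed markers, mostly *Plin4* and *Fabp4*, ranged from 28.3 to 40.7 CPM in FxrKO and from 23.3 to 35.6 CPM in Bcl6LKOFxrKO livers.

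The lipogenic genes did not move together. *Acacb*, *Thrsp* and *Pnpla3* were higher in Bcl6LKOFxrKO than in FxrKO livers, *Scd1*, *Mlxipl* and *Me1* were lower, and *Srebf1*, *Acly*, *Acaca* and *Fasn* did not pass the test. The largest drop was that of *Scd1*, 2.81-fold lower, and *Mlxipl*, which encodes ChREBP, was 2.12-fold lower. *Acacb* was 2.08-fold higher and *Pnpla3*, the least expressed of the 10, was 4.63-fold higher. Calls rest on edgeR's quasi-likelihood test, with p-values adjusted by Benjamini and Hochberg's method over all 12340 genes and a threshold of 0.05. On this basis 3 of the 10 genes were higher, where 16.2% of all tested genes were, and 3 were lower, where 13.5% were. Both shares were above those of all genes, but each rests on 3 genes and the difference was not tested. The 10 genes were also chosen with earlier results of these data known. The median log2 fold change was -0.20 over the 10 genes, with 3 positive and 7 negative, and 0.01 over all genes. In 2 of the genes every Bcl6LKOFxrKO liver lay above every FxrKO liver, as in 16.1% of all genes, and in 3 every Bcl6LKOFxrKO liver lay below, as in 15.2%. For these 5 genes the exact two-sided permutation test of the mean log2 CPM gave p = 0.029, unadjusted and the smallest it can give with 4 livers a genotype, and for the other 5 it gave 0.057 to 0.60. Scaling by total counts alone moved the median of all genes by -0.16, and then 2 of the 10 genes were higher and 4 lower, beside 1404 higher and 2949 lower among all genes in place of 1994 and 1665. In whole liver, fewer cells of a type and less RNA per cell cannot be told apart.

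**Figure D1:**
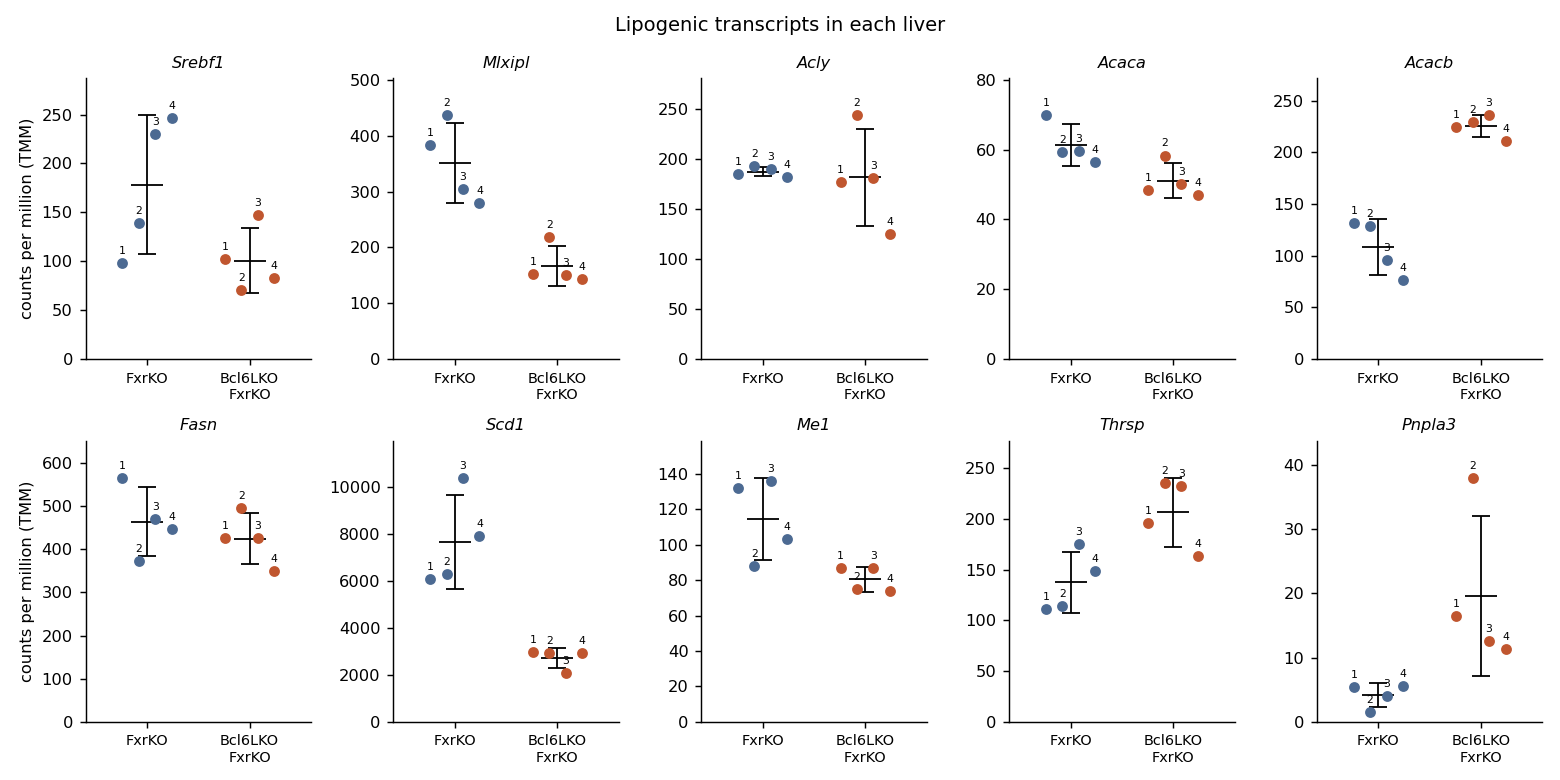
Expression of the 10 lipogenic genes in each liver, in CPM scaled with TMM factors (y axis, starting at 0), for FxrKO and Bcl6LKOFxrKO livers (x axis). Points are livers with their numbers, the long bar is the mean and the whiskers are 1 SD (n = 4), and the genotypes do not overlap for *Mlxipl*, *Acacb*, *Scd1*, *Me1* and *Pnpla3*.

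*Srebf1* (chr11:60199084-60220627, minus strand, mm10) encodes SREBP-1, the factor through which insulin drives the synthesis of fatty acids. It was at 98.3, 139, 230 and 246 CPM in FxrKO livers 1 to 4 and at 102, 70.3, 147 and 83.1 CPM in Bcl6LKOFxrKO livers 1 to 4. FxrKO livers 3 and 4 were the highest of the 8, FxrKO livers 1 and 2 lay within the range of the other genotype, and the genotypes overlapped. The means were 178 ± 71.0 and 101 ± 33.7 CPM (SD, n = 4), and the log2 fold change of -0.82 (standard error 0.33, 95% interval -1.57 to -0.07) did not pass the test (edgeR adjusted p = 0.094). Leaving out FxrKO liver 1 or Bcl6LKOFxrKO liver 3, which lie farthest toward the other genotype, brought it past the threshold at -1.03 (edgeR adjusted p = 0.0175) and -1.06 (0.0429), as did DESeq2 at -0.83 (0.0183). Over the 15 alternative fits its adjusted p ranged from 0.0175 to 0.242. The coefficient of variation of *Srebf1* among FxrKO livers, 39.9%, was above that of every other lipogenic gene but *Pnpla3*. The clock genes also split the FxrKO livers in this way, in both directions. *Per2* was at 15.7 and 15.4 CPM in FxrKO livers 1 and 2 and at 36.8 and 44.8 CPM in livers 3 and 4, and *Ciart* was at 5.72, 7.0, 23.4 and 46.5 CPM, whereas *Arntl*, at 4.47, 5.75, 0.967 and 1.32 CPM, and *Nr1d1*, at 187, 141, 105 and 94.9 CPM, were lower in livers 3 and 4. The Bcl6LKOFxrKO livers split likewise in *Per2*, at 3.73, 8.62, 15.1 and 10.4 CPM, *Ciart*, at 0.806, 3.28, 8.08 and 8.99 CPM, and *Arntl*, at 14.9, 4.98, 1.46 and 1.09 CPM. They did not split in *Nr1d1*, at 164, 145, 132 and 182 CPM. In *Srebf1* Bcl6LKOFxrKO liver 3 was the highest of its genotype and liver 2 the lowest. The time of collection is not given in the labels, and the part of these differences in the spread of *Srebf1* was not tested. RefSeq lists 3 starts of *Srebf1* and the deposited counts do not separate them, so SREBP-1a and SREBP-1c cannot be told apart. The end of *Srebf1* also overlaps *Rai1* on the opposite strand, and the counting options do not state a strand.

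*Mlxipl* (chr5:135106891-135138201, plus strand) encodes ChREBP, which switches on glycolytic and lipogenic genes when sugar is taken up. It was at 383, 437, 305 and 279 CPM in FxrKO livers and at 152, 219, 150 and 143 CPM in Bcl6LKOFxrKO livers. Every Bcl6LKOFxrKO liver was below every FxrKO liver, and Bcl6LKOFxrKO liver 2 stood above the other livers of its genotype. The log2 fold change was -1.08 (standard error 0.17, 95% interval -1.45 to -0.71, edgeR adjusted p = 0.000485). ChREBP is made in an alpha and a beta form from separate starts, the beta start lying upstream and being driven by ChREBP itself, and the counts do not separate the forms. The stretches from 160 to 11 bases before the counted start (chr5:135106731-135106880, plus strand) and before the other RefSeq start, 17001 bases upstream (chr5:135089730-135089879, plus strand), are shown because a change in *Mlxipl* counts could come from either start. They are from RefSeq promoters of GRCm38.p6, the build of mm10, and neither overlaps an exon of GENCODE vM21. A set of 5 motifs was searched on both strands of 300-base windows: the E-box CACGTG, the core of the sterol regulatory element TCACNCCAC, the CCAAT box CCAAT, the core of sites that BCL6 and STAT proteins share TTCNNNGAA, and the GC box GGGCGG, of which none overlaps another in the stretches shown. Capitals mark the sterol element core at the counted start, and the E-box and a GC box at the upstream start.
Mlxipl counted start: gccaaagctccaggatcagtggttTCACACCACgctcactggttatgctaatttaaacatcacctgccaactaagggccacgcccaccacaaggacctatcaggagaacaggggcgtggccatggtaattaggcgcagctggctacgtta
Mlxipl upstream start: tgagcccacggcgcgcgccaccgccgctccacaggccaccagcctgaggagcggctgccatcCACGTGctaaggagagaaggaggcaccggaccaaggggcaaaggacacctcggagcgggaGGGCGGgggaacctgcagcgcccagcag
Among the 13 windows of 9 of the lipogenic genes, these were the only match of the sterol element core, which 1.24% of all 32851 windows hold, and the only match of the E-box, which 7.15% hold. The BCL6 and STAT core had 0 matches in the 13 windows and is in 8.30% of all windows. The CCAAT box was in 9 of the 13 and in 37.4% of all windows, and the GC box in 6 of the 13 and in 35.7%. Among the windows of tested genes the shares were 1.18% for the sterol element core, 10.1% for the E-box, 6.97% for the BCL6 and STAT core, 37.4% for the CCAAT box and 60.5% for the GC box. A match describes the letters of the window and not binding.

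*Acly* (chr11:100476352-100528000, minus strand), the ATP citrate lyase that supplies cytosolic acetyl-CoA, was at 185, 193, 190 and 182 CPM in FxrKO livers and at 177, 244, 181 and 125 CPM in Bcl6LKOFxrKO livers. All 4 FxrKO livers lay inside the range of the Bcl6LKOFxrKO livers, which was set by liver 2 at the top and liver 4 at the bottom. The means were 187 ± 4.89 and 182 ± 48.7 CPM (SD, n = 4), and the log2 fold change was -0.04 (95% interval -0.40 to 0.31, edgeR adjusted p = 0.869). This interval leaves room for changes of either sign, and the sign turned to 0.10 without Bcl6LKOFxrKO liver 4.

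The carboxylases differed from each other. *Acaca* (chr11:84195438-84401651, plus strand) encodes ACC1, the cytosolic enzyme whose malonyl-CoA feeds fatty acid synthase, and was at 69.9, 59.2, 59.6 and 56.4 CPM in FxrKO livers and at 48.5, 58.3, 50.2 and 47.1 CPM in Bcl6LKOFxrKO livers. Only Bcl6LKOFxrKO liver 2 reached into the range of the FxrKO livers. The log2 fold change of -0.27 (95% interval -0.51 to -0.02) did not pass the test (edgeR adjusted p = 0.0954), and it did so without that liver, at -0.34 (edgeR adjusted p = 0.046), and with scaling by total counts alone, at -0.43 (0.0108), with adjusted p from 0.0108 to 0.242 over all 15 alternatives. *Acacb* (chr5:114165518-114250758, plus strand) encodes ACC2, the enzyme at the mitochondrial surface whose malonyl-CoA restrains the entry of fatty acids through CPT1. It was at 132, 129, 96.0 and 76.6 CPM in FxrKO livers and at 224, 229, 236 and 211 CPM in Bcl6LKOFxrKO livers. The Bcl6LKOFxrKO livers lay close together and all above the FxrKO livers, and the log2 fold change was 1.05 (standard error 0.16, 95% interval 0.71 to 1.40, edgeR adjusted p = 0.000326). The ratio of *Acacb* to *Acaca* counts per base within a library, which does not depend on how libraries are scaled, was 2.01, 2.32, 1.71 and 1.45 in FxrKO livers and 4.91, 4.18, 5.01 and 4.76 in Bcl6LKOFxrKO livers. The ranges were far apart, with means of 1.87 ± 0.375 and 4.72 ± 0.373 (SD, n = 4), so the makeup of the carboxylase transcripts was shifted 2.52-fold toward ACC2. This ratio and the 2 below were chosen after the counts were seen, out of 7 ratios computed. They are the 3 that do not overlap between genotypes (exact two-sided permutation p = 0.029, the smallest possible), and *Mlxipl* to *Srebf1*, *Srebf1* to *Srebf2*, *Insig2* to *Insig1* and *Acly* to *Acss2* overlapped (exact permutation p of 0.086 to 0.66, all unadjusted). Because of that choice these p-values are given as a description. The stretch before the start of *Acacb* (chr5:114165358-114165507, plus strand, RefSeq, GRCm38.p6) is shown because *Acacb* alone was called higher among *Acly*, *Acaca*, *Acacb*, *Fasn*, *Scd1* and *Me1*. Its capitals mark a CCAAT box.
Acacb counted start: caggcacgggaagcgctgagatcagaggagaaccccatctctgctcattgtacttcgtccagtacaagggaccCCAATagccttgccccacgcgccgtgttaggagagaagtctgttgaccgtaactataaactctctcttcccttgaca
No other motif of the 5 was found in this window.

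*Fasn* (chr11:120805958-120824547, minus strand) encodes fatty acid synthase, the enzyme that assembles palmitate. It was at 566, 372, 470 and 446 CPM in FxrKO livers and at 427, 496, 427 and 350 CPM in Bcl6LKOFxrKO livers. The genotypes overlapped over most of their ranges, with means of 463 ± 80.2 and 425 ± 59.8 CPM (SD, n = 4). The log2 fold change was -0.12 (95% interval -0.44 to 0.19, edgeR adjusted p = 0.558), so a fall of the size seen for *Scd1* or *Mlxipl* lies outside its interval. *Fasn* passed the threshold under none of the 15 alternative fits, which gave values from -0.29 to -0.02.

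*Scd1* (chr19:44394450-44407709, minus strand) encodes the stearoyl-CoA desaturase of liver, which turns stearate into oleate. It was at 6082, 6299, 10413 and 7917 CPM in FxrKO livers and at 2989, 2946, 2096 and 2916 CPM in Bcl6LKOFxrKO livers. The highest Bcl6LKOFxrKO liver was below the lowest FxrKO liver, and Bcl6LKOFxrKO liver 3 was the lowest of all. The log2 fold change was -1.49 (standard error 0.19, 95% interval -1.89 to -1.08, edgeR adjusted p = 7.75e-05). *Scd1* was so abundant that it set the total of the pathway: it took 0.642% to 1.11% of all counts of FxrKO livers and 0.205% to 0.290% of those of Bcl6LKOFxrKO livers. Of the counts on the 10 genes, 78.3% to 86.2% and 57.9% to 70.7% were its own. The 10 genes together made up 0.819% to 1.28% of all counts in FxrKO and 0.355% to 0.429% in Bcl6LKOFxrKO livers, and without *Scd1* 0.162% to 0.178% and 0.112% to 0.15%. The ratio of *Scd1* to *Fasn* counts per base was 22.0, 34.7, 45.4 and 36.4 in FxrKO livers and 14.3, 12.2, 10 and 17.1 in Bcl6LKOFxrKO livers, with every Bcl6LKOFxrKO liver below every FxrKO liver and means of 34.6 ± 9.65 and 13.4 ± 3.01 (SD, n = 4).

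*Me1* (chr9:86581363-86695914, minus strand) encodes cytosolic malic enzyme, which yields NADPH for the synthase. It was at 132, 87.8, 136 and 103 CPM in FxrKO livers and at 86.8, 75.0, 86.6 and 74.0 CPM in Bcl6LKOFxrKO livers. The genotypes did not overlap, but FxrKO liver 2 at 87.8 CPM was next to Bcl6LKOFxrKO liver 1 at 86.8 CPM. The log2 fold change was -0.51 (standard error 0.14, 95% interval -0.82 to -0.20, edgeR adjusted p = 0.0175). The call rested on the FxrKO livers with the most *Me1*, since it was lost without FxrKO liver 1, at -0.44 (edgeR adjusted p = 0.0528), or without liver 3, at -0.42 (0.0611), within a range of 0.00466 to 0.0611 over all 15 alternatives. Its first exon overlaps A330041J22Rik on the opposite strand, which held 38 and 31 counts over the livers of each genotype.

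*Thrsp* (chr7:97412933-97417550, minus strand) encodes a thyroid hormone responsive protein of lipogenic tissues. It was at 111, 114, 175 and 149 CPM in FxrKO livers and at 196, 235, 232 and 163 CPM in Bcl6LKOFxrKO livers. The genotypes overlapped at FxrKO liver 3 and Bcl6LKOFxrKO liver 4, and the log2 fold change was 0.59 (standard error 0.17, 95% interval 0.23 to 0.95, edgeR adjusted p = 0.0177). The call was lost without FxrKO liver 1, at 0.50 (edgeR adjusted p = 0.0554), without FxrKO liver 2, at 0.51 (0.0627), and with scaling by total counts alone, at 0.43 (0.0623), within a range of 0.00568 to 0.0627 over all 15 alternatives. *Mid1ip1*, which encodes a relative of the *Thrsp* protein that promotes the polymerization of acetyl-CoA carboxylase, moved the other way. It was at 43.5, 40.4, 57.6 and 52.2 CPM in FxrKO livers and at 15.1, 27.7, 21.6 and 14.3 CPM in Bcl6LKOFxrKO livers (log2 fold change -1.31, edgeR adjusted p = 0.000432). The ratio of *Thrsp* to *Mid1ip1* counts per base was 4.76, 5.27, 5.68 and 5.34 in FxrKO livers, a narrow range, and 24.2, 15.9, 20.1 and 21.4 in Bcl6LKOFxrKO livers. The means of 5.26 ± 0.380 and 20.4 ± 3.47 (SD, n = 4) differ 3.87-fold.

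**Figure D2:**
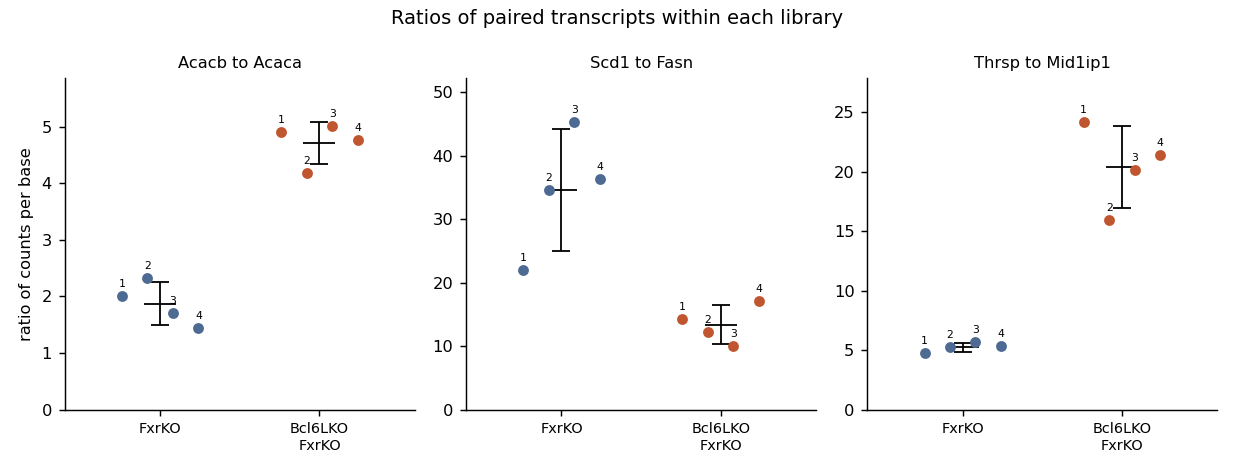
Ratios of the counts per base of *Acacb* to *Acaca*, *Scd1* to *Fasn* and *Thrsp* to *Mid1ip1* (y axis, starting at 0) within each liver's library, for FxrKO and Bcl6LKOFxrKO livers (x axis). Points are livers with their numbers, the long bar is the mean and the whiskers are 1 SD (n = 4), and in each panel the genotypes do not overlap.

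*Pnpla3* (chr15:84167816-84189521, plus strand) encodes adiponutrin, a lipid droplet protein whose gene is a target of SREBP-1 and ChREBP. It was the lowest of the 10, with 52, 12, 37 and 59 counts in FxrKO livers and 164, 313, 129 and 125 counts in Bcl6LKOFxrKO livers, or 5.41, 1.5, 3.98 and 5.58 CPM and 16.5, 38.0, 12.6 and 11.4 CPM. Every Bcl6LKOFxrKO liver was above every FxrKO liver, and liver 2 was the farthest from its neighbours in each genotype, the lowest of the FxrKO and the highest of the Bcl6LKOFxrKO livers. The log2 fold change was 2.21 (standard error 0.49, 95% interval 1.09 to 3.33, edgeR adjusted p = 0.0100), and it was called in every fit that left out 1 liver, between 1.68 and 2.40. The stretch before its start (chr15:84167656-84167805, plus strand, RefSeq, GRCm38.p6) is shown because *Pnpla3* had the largest fold change of the set, and its capitals mark a GC box, a CCAAT box read on the minus strand and another GC box.
Pnpla3 counted start: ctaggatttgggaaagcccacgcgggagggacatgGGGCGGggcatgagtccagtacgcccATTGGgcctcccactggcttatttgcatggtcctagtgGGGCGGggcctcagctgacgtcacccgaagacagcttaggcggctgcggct

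**Figure D3:**
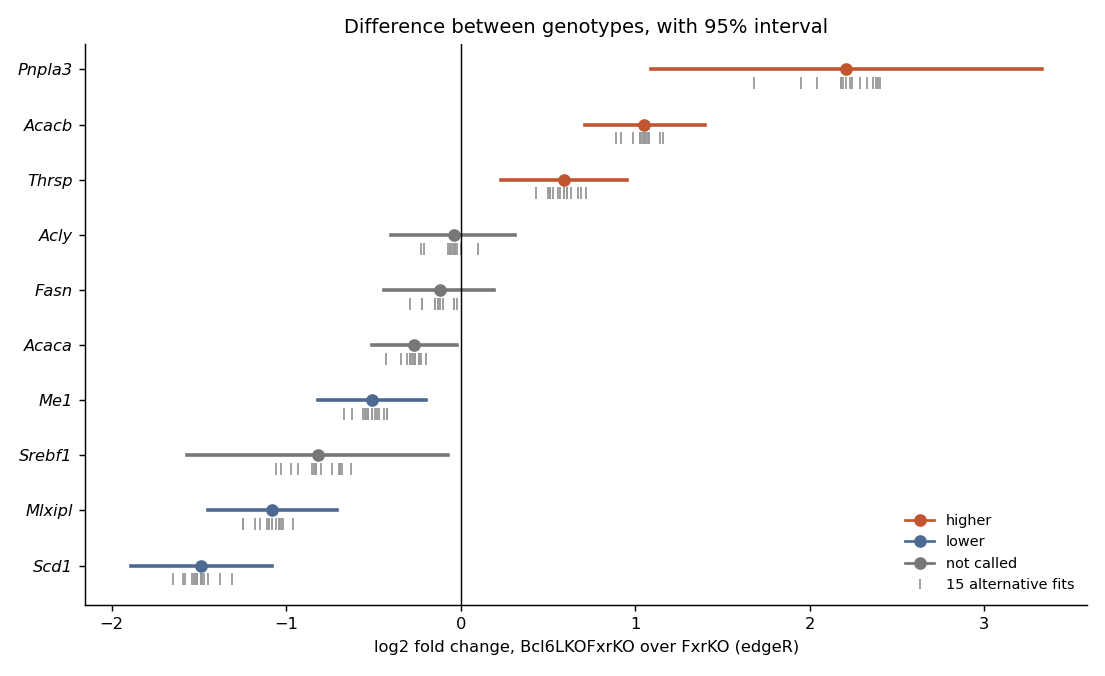
Log2 fold change of Bcl6LKOFxrKO over FxrKO livers (x axis) for the 10 lipogenic genes (y axis), as points with 95% intervals from edgeR, colored by whether the gene was called. Grey ticks are the 15 alternative fits, and those of every gene but *Acly* all lie on the side of the main value.

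Per kilobase of transcript, the scale on which levels of different genes can be compared, *Scd1* was the highest of the 10 in both genotypes, at 1590 ± 414 CPM per kb in FxrKO and 567 ± 88.7 in Bcl6LKOFxrKO livers (SD, n = 4). *Thrsp* came next, at 125 ± 27.9 and 188 ± 31.1, and then *Mlxipl*, at 100 ± 20.7 and 47.4 ± 10.1. *Thrsp* and *Mlxipl* did not differ beyond their spread in FxrKO livers and stood apart in Bcl6LKOFxrKO livers. In FxrKO livers *Fasn* (46.8 ± 8.11), *Acly* (42.6 ± 1.11), *Srebf1* (41.4 ± 16.5) and *Me1* (35.4 ± 7.16) followed without differing from their neighbours beyond the spread, and *Acacb* (12.9 ± 3.17), *Acaca* (6.83 ± 0.661) and *Pnpla3* (0.888 ± 0.407) closed the order. In Bcl6LKOFxrKO livers *Mlxipl*, *Fasn* (43.0 ± 6.05) and *Acly* (41.4 ± 11.1) lay together, and *Acacb* (26.7 ± 1.27) had moved up from place 8 to place 6, above *Me1* (24.9 ± 2.18) and *Srebf1* (23.4 ± 7.84), from which it did not differ beyond the spread. *Acaca* (5.68 ± 0.554) and *Pnpla3* (4.23 ± 2.68) were again the lowest.

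Within a genotype the livers were not ranked alike. Bcl6LKOFxrKO liver 4 was the lowest of its genotype for 8 of the 10 genes and the highest for 0, and liver 2 was the highest for 6 (*Mlxipl*, *Acly*, *Acaca*, *Fasn*, *Thrsp* and *Pnpla3*). No FxrKO liver was the lowest for more than 4 genes or the highest for more than 3. FxrKO livers 3 and 4 had more *Srebf1*, *Scd1* and *Thrsp* and less *Mlxipl* and *Acacb* than FxrKO livers 1 and 2. In FxrKO livers the clock genes given above split in the same way. In Bcl6LKOFxrKO livers *Per2*, *Ciart* and *Arntl* also set livers 1 and 2 apart from 3 and 4, and *Nr1d1* did not. There livers 3 and 4 had less *Mlxipl*, *Scd1* and *Pnpla3* than livers 1 and 2, and the other lipogenic genes were not split. The gap was small for *Mlxipl* (152 CPM in liver 1, 150 in liver 3) and *Scd1* (2946 in liver 2, 2916 in liver 4). The direction was that of the FxrKO livers for *Mlxipl* and the reverse for *Scd1*. None of these differences was tested.

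The genes around the pathway were taken as 8 lists, of which 103 of 106 genes were tested. Of the 103, 19 (18.4%) were higher, 19 (18.4%) were lower, and the median log2 fold change was 0.01, beside 16.2%, 13.5% and 0.01 over all tested genes. With scaling by total counts alone the split was 10 higher and 29 lower.

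Genes that supply carbon and reducing power differed by branch. Of the 8 genes of citrate and acetyl-CoA supply, *Pdha1* (log2 fold change -0.66) and *Pdhb* (-0.69), subunits of pyruvate dehydrogenase, were lower with edgeR adjusted p of 0.000415 and 0.000445. *Acss2*, which makes acetyl-CoA from acetate, was higher (0.38, adjusted p = 0.0458). This call was lost with scaling by total counts alone and with the 50 most counted genes left out before TMM. Of the 9 genes of NADPH supply other than *Me1*, 3 were higher and 6 did not pass the test by edgeR, with a median of 0.28. *Pgd*, the phosphogluconate dehydrogenase of the pentose phosphate pathway, was at 66.3, 54.7, 53.1 and 45.1 CPM in FxrKO and 118, 112, 103 and 127 CPM in Bcl6LKOFxrKO livers (log2 fold change 1.07, adjusted p = 5.2e-05). *Taldo1* (0.52) and *Idh1* (0.44) were the others, and scaled by total counts alone *Pgd* alone was higher and 1 gene lower.

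Of the 10 genes of sugar entry and ChREBP targets, 4 were lower and 1 higher by edgeR, with a median of -0.37. *Khk*, the ketohexokinase that commits fructose to metabolism, was at 310, 338, 354 and 299 CPM in FxrKO and 139, 151, 162 and 218 CPM in Bcl6LKOFxrKO livers (log2 fold change -0.96, adjusted p = 0.000303), with no overlap. *Pklr*, the liver pyruvate kinase and a classical ChREBP target, was at 329, 346, 453 and 389 CPM against 167, 287, 281 and 197 CPM (-0.70, adjusted p = 0.00991). *Slc2a2*, the glucose transporter GLUT2, was lower (-0.73, adjusted p = 0.0117), as was *Gpd1* (-0.48). *Arrdc4*, an arrestin that responds to glucose through ChREBP and its relative MondoA, was higher instead, at 11.3 ± 1.27 and 18.3 ± 4.11 CPM (0.70, edgeR adjusted p = 0.00838).

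Of the 15 genes that control SREBP-1 and ChREBP, 2 were higher and 4 lower by edgeR, with a median of -0.01. *Nr0b2*, which encodes the corepressor SHP, a direct FXR target, was at 13.9, 16.6, 11.0 and 7.95 CPM in FxrKO and 1.21, 1.33, 0.487 and 0.454 CPM in Bcl6LKOFxrKO livers, the largest difference of these genes (log2 fold change -3.85, adjusted p = 4.14e-06). *Rxra* (-0.60), the partner of LXR, and *Mlx* (-0.49), the partner of ChREBP, were lower. *Insig2*, which holds SREBP in the endoplasmic reticulum, was at 219, 238, 111 and 123 CPM in FxrKO and 124, 103, 82.4 and 64.2 CPM in Bcl6LKOFxrKO livers. FxrKO livers 3 and 4, high in *Srebf1*, were low in *Insig2* and overlapped the other genotype, and the log2 fold change was -0.88 (edgeR adjusted p = 0.0442). *Nr1h2* (0.55), which encodes LXR beta, and *Scap* (0.34), the escort of SREBP, were higher, the second not with scaling by total counts alone. *Srebf2* (44.8 ± 2.58 and 51.2 ± 9.24 CPM, SD, n = 4) and *Insig1* (208 ± 58.0 and 223 ± 67.3) overlapped between genotypes and did not pass the test (log2 fold change 0.19 and 0.09, edgeR adjusted p = 0.296 and 0.794).

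Of the 11 genes that act on the activity of the enzymes, 3 were lower and 8 did not pass the test by edgeR, with a median of -0.03. Beside *Mid1ip1* these were *Prkaa2*, the alpha 2 catalytic subunit of AMPK, which phosphorylates and inhibits the carboxylases, at 41.2, 38.1, 44.2 and 44.2 CPM in FxrKO and 20.0, 20.3, 26.9 and 12.1 CPM in Bcl6LKOFxrKO livers (log2 fold change -1.08, adjusted p = 0.00102), and *Aasdhppt*, which puts the phosphopantetheine arm on fatty acid synthase (-0.49, adjusted p = 0.0108).

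Among the genes that lengthen and desaturate fatty acids after synthesis, 12 of 15 were tested, 3 were higher and 3 lower. *Fads1*, the delta-5 desaturase of polyunsaturated fatty acids, was at 617, 525, 688 and 683 CPM in FxrKO and 1251, 1240, 1041 and 1126 CPM in Bcl6LKOFxrKO livers (log2 fold change 0.89, edgeR adjusted p = 0.000216), opposite in sign to *Scd1*. *Tecr* (0.49) and *Fads2* (0.48) were also higher, but not with scaling by total counts alone. *Hsd17b12* (-0.67) and *Elovl5* (-0.76) were lower, and *Elovl6*, the elongase of palmitate and an SREBP-1c target, was at 112 ± 12.1 and 83.3 ± 19.1 CPM (SD, n = 4) and did not pass the test (-0.43, edgeR adjusted p = 0.0525). *Elovl3*, an elongase with a strong male bias and daily rhythm in mouse liver, was at 51.9, 81.1, 38.0 and 4.16 CPM in FxrKO livers and at 0.101, 0.121, 0 and 0 CPM in Bcl6LKOFxrKO livers, no more than 1 count in any of these (edgeR adjusted p = 0.00365).

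Of the 16 genes of triglyceride assembly, 2 were higher and 3 lower by edgeR, with a median of 0.07. Among the acyltransferases on the way to phosphatidic acid, the called genes moved in both directions. *Gpam* (log2 fold change -0.02), *Gpat2* (0.71) and *Agpat3* (0.26) did not pass the test (edgeR adjusted p = 0.899, 0.0829 and 0.111). *Gpat3* was higher, at 8.02 ± 1.27 and 24.6 ± 8.67 CPM (SD, n = 4; log2 fold change 1.62, edgeR adjusted p = 0.000415), and *Gpat4*, at 204 ± 23.0 and 117 ± 18.7 CPM (-0.80), and *Agpat2*, at 144 ± 9.99 and 69.4 ± 5.24 CPM (-1.06, edgeR adjusted p = 1.06e-05), were lower. Of the acyl-CoA synthetases that activate fatty acids, *Acsl5* was higher (0.54) and *Acsl1* lower (-0.60). Of the 22 genes of cholesterol synthesis and uptake, which SREBP-2 drives, 7 were higher and 15 did not pass the test by edgeR, with a median of 0.18. *Pmvk* (0.82), *Fdft1* (0.74) and *Cyp51* (0.68) had the smallest adjusted p among them (0.000618, 0.00607 and 0.00788). This split was 4 higher and 2 lower with scaling by total counts alone.

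**Figure D4:**
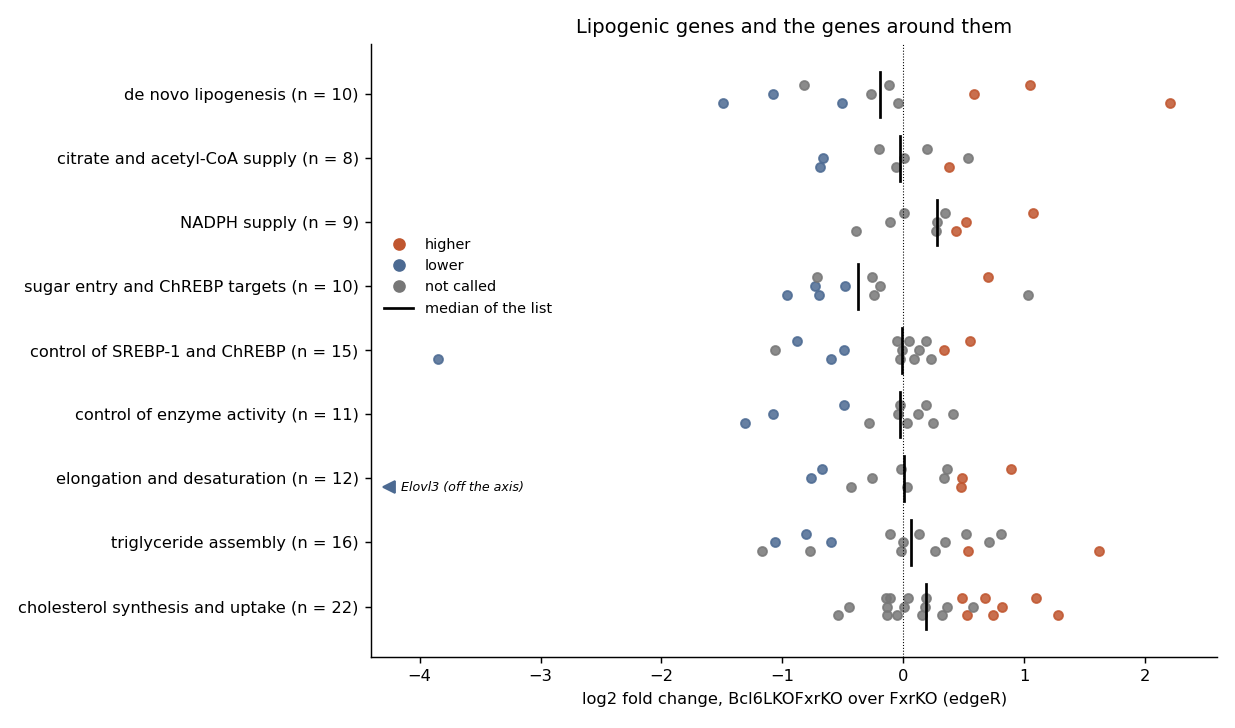
Log2 fold change of Bcl6LKOFxrKO over FxrKO livers (x axis) for the tested genes of de novo lipogenesis and of the 8 lists around it (y axis). Each point is a gene, colored by whether edgeR called it, the black bar is the median of a list, and *Elovl3*, with no more than 1 count in each Bcl6LKOFxrKO liver, lies beyond the left end of the axis.

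Feeding state sets lipogenic transcripts, so genes of the fasting response were read beside them. Of 10, 3 were lower and 2 higher by edgeR, with a median log2 fold change of -0.53. *Pck1*, the gluconeogenic carboxykinase, was at 1420, 2968, 2704 and 3362 CPM in FxrKO and 735, 603, 1281 and 810 CPM in Bcl6LKOFxrKO livers (log2 fold change -1.61, adjusted p = 0.00215), and *Cpt1a*, of fatty acid oxidation, was lower too (-0.89, adjusted p = 0.00183). *Pdk4*, the pyruvate dehydrogenase kinase, was higher, at 5.02 ± 1.39 and 23.9 ± 12.9 CPM (SD, n = 4; edgeR adjusted p = 0.00523), and so was *Fgf21*, which had at most 0.728 CPM in the FxrKO livers and 1.56 to 3.63 CPM in the Bcl6LKOFxrKO livers (edgeR adjusted p = 0.00192). Of 13 tested clock genes, *Hlf* and *Per2* were lower and 11 did not pass the test by edgeR, with a median of -0.31. The part of feeding and of collection time in the lipogenic differences was not tested.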

How the data were processed

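Liver poly(A) RNA of 4 FxrKO and 4 Bcl6LKOFxrKO males was sequenced on an Illumina NextSeq 2000 with a stranded library kit and 100 bp single-end reads. Groups follow the genotype in the labels. The authors aligned reads to mm10 with STAR 2.5.2, discarding reads that mapped to more than 1 place or with more than 4 mismatches, and counted the exonic reads of each gene with HOMER 4.10. The deposited values are these raw counts, for 1 transcript of each gene, whose length is given. The stated counting options name no strand. No per-sample column was left unused (0 columns). The study's methods name DESeq2.

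Counts were tested in R 4.3.3 with edgeR 4.0.16 (filterByExpr, TMM, robust quasi-likelihood fits of genotype alone) and Benjamini-Hochberg adjustment over 12340 genes. CPM use the TMM factors. The fits were first tested on simulated counts. Totals of 7586241 to 11839503 counts per liver leave low genes such as *Pnpla3* imprecise. Within a genotype every pair of livers differed by more than sampling noise (chi-square per degree of freedom 10.7 to 49.3). Each library carries its own number in the labels, which say nothing further of the animals, so p-values measure the spread between these libraries.

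The members and the gene lists were chosen with earlier results of these data known. The genes named are all 10 lipogenic genes, in each other list, and for either direction, the 3 called genes that had the smallest adjusted p, *Nr0b2*, *Srebf2*, *Insig1*, *Insig2*, *Mid1ip1*, *Elovl6* and *Pklr* whatever their values, and *Bcl6* and *Nr1h4*. Some genes that this rule gives are not reported here. *Gpd1*, *Ciart*, *Arntl*, *Nr1d1*, *Cd163*, *Timd4*, *Sox9*, *Adipoq*, *Lep*, *Plin1*, *Plin4*, *Fabp4* and the genes that overlap *Srebf1* and *Me1* were named after their values were seen. So were *Gpam*, *Gpat2* and *Agpat3*. Alternatives were RLE size factors, total counts alone, the 50 most counted genes left out before TMM, no expression filter, a minimum of 10 counts per liver, DESeq2 1.42.0, limma 3.58.1 (voom with quality weights), each liver left out and a fold threshold of 0.5 on the log2 scale. Promoter windows (250 bases before to 50 after a start) are RefSeq's for GRCm38.p6. They were found for 9 of the 10 genes, and *Scd1* was not searched.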

Additional observations from a re-analysis of the deposited data

Results flagged for a closer look

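In each genotype the 10 lipogenic genes, *Bcl6*, *Nr1h4*, the 7 ratios and the total counts were examined, as 40 groups of 4 livers. Of these, 2 held a liver far from the rest of its genotype. Chance gives about 1 group in 20, so 2 groups are about as many as chance gives. *Mlxipl* in Bcl6LKOFxrKO liver 2 was at 219 CPM against 143 to 152 CPM in the other 3 livers, a gap of 0.875 of the whole range of the group. *Scd1* in Bcl6LKOFxrKO liver 3 was at 2096 CPM against 2916 to 2989 CPM, a gap of 0.918 of the range. Both genes were called lower in every fit that left out 1 liver, *Mlxipl* between -1.25 and -0.96 and *Scd1* between -1.59 and -1.31 on the log2 scale.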

How the results depend on the processing

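Of 150 refits of the 10 log2 fold changes, 138 kept their direction and their side of the threshold, 5 lost and 5 gained a call, and 2 changed sign. *Mlxipl*, *Acacb*, *Scd1* and *Pnpla3* kept their calls under all 15 alternatives. *Acly* was at 0.00 with limma voom and at 0.10 without Bcl6LKOFxrKO liver 4, and ranged from -0.23 to 0.10 over the fits that left out 1 liver. Scaling by total counts alone gave 10 higher and 29 lower genes in the lists around the pathway and 2949 lower genes of all genes, where the median of all genes moved by -0.16 on the log2 scale. Leaving out 1 liver gave 2 to 3 lipogenic genes higher and 2 to 4 lower, and DESeq2 gave 3 and 4. No paired analysis was possible because the labels give livers of the genotypes no shared numbers. The 4 livers of each genotype and 12 to 59 counts of *Pnpla3* in FxrKO livers limit its precision, and the intervals of *Srebf1*, *Acly*, *Acaca* and *Fasn* do not show that these transcripts were alike in both genotypes.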
